A study of Mus musculus with 4 samples.

Results

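The Sall genes Sall1, Sall2, Sall3 and Sall4 encode the vertebrate spalt-like zinc-finger transcription factors. Peaks of a Flag-tagged Isl1-Lhx3 fusion near them were read from a deposited ChIP-seq peak list of mouse iMN-ESCs. Peaks were chosen by their place in that list: a peak was kept when one of the 4 genes had the protein-coding transcription start nearest to its maximum. This gave 8 peaks in 5 regions, of 2454 nuclear peaks in 2301 regions. Sall1 received 7 peaks in 4 regions and Sall4 received 1, while Sall2 and Sall3 had no peak. Over the genome, 8.18% of 22333 protein-coding genes had at least 1 peak.

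The cells were A172LoxP embryonic stem cells in which a tetracycline-inducible transgene for the Flag-tagged Isl1-Lhx3 fusion had been inserted, so both groups carried it. Stable transfectants were selected with G418, and the labels do not say whether they are 1 clone or whether the libraries came from separate cultures. The group with Dox (n = 2 libraries) received doxycycline at 2 µg/mL for 4 days, and the group without Dox (n = 2 libraries) received none. Embryoid bodies of both groups had retinoic acid at 0.5 µM, alone for 2 days and then throughout, and LIF at 1000 units/mL for 16 hours before harvest. Chromatin was precipitated with anti-Flag antibody in all 4 libraries, so the assay reads the introduced fusion and not the cells' own Isl1 and Lhx3. The peak list holds 1 value of each kind per peak for the whole series. No value of a single library was given, the depth of the libraries is unknown, and the groups with and without Dox could not be compared at any Sall peak.

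Sall proteins carry clusters of C2H2 zinc fingers and Sall1 and Sall4 recruit the NuRD corepressor through a short motif at the N terminus. Sall4 is part of the transcription factor network of embryonic stem cells, Sall1 is needed for kidney development, and changes in the human genes SALL1 and SALL4 cause limb and organ malformation syndromes. Sall3 is the closest relative of Sall1, and Sall2 is the most divergent of the family. Isl1 and Lhx3 are LIM-homeodomain factors that together specify spinal motor neurons, and homeodomains commonly contact sites with an ATTA core.

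The sequences below are the forward strand of mm9 around each of the 8 maxima, shown because homeodomain cores and longer sites were counted around them. They span 200 bp for the highest-scoring maximum of a region and 100 bp for the others. Names give the gene and the distance of the maximum from its nearest start, with a minus sign for upstream. Capitals mark every ATTA or TAAT core.
Sall1 +52.1 kb, chr8:91515860-91516059: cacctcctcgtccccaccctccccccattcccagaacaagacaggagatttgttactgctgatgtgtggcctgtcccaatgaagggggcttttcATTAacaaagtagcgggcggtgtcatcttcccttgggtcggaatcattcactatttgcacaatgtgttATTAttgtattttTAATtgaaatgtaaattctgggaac
Sall1 +51.9 kb, chr8:91516115-91516214: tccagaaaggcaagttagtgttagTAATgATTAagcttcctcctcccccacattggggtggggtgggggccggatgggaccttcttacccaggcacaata
Sall1 +40.8 kb, chr8:91527214-91527313: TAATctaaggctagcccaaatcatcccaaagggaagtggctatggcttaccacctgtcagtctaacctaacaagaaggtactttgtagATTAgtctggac
Sall1 +40.6 kb, chr8:91527371-91527470: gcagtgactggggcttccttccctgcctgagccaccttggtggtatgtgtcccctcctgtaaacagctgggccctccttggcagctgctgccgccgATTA
Sall1 +40.5 kb, chr8:91527473-91527672: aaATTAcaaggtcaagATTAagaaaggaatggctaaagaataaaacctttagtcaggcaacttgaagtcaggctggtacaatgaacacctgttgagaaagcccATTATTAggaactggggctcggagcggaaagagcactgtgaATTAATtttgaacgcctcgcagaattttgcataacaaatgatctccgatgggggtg
Sall1 -3.42 kb, chr8:91571383-91571582: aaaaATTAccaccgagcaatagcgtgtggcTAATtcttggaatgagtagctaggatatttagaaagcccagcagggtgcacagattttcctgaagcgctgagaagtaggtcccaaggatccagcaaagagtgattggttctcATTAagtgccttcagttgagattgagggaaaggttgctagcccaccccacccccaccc
Sall1 -19.7 kb, chr8:91587692-91587891: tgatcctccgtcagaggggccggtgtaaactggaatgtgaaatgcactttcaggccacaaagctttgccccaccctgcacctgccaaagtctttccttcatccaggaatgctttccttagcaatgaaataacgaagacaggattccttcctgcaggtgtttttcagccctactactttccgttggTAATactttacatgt
Sall4 +2.46 kb, chr2:168588183-168588382: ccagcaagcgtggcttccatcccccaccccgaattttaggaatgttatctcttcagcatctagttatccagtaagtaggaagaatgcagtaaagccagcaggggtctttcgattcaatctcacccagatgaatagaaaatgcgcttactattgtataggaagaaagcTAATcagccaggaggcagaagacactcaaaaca

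Sall1 was flanked by peaks on both sides, and none lay within the gene. The gene (ENSMUSG00000031665.6) runs on the reverse strand of chromosome 8 from 91551147 to 91568061, with 1 annotated start. Its next protein-coding records were 143 kb (Gm5356, 1 peak) and 220 kb (Rps6-ps2, 0 peaks) away. The region with the highest score lay past the end of the gene, 40.5 to 40.8 kb from the start and 23.6 to 23.9 kb beyond the last exon. It ran from 91527155 to 91528183 and held 3 maxima, with ChIP scores of 57.01, 32.65 and 47.37 at +40.5, +40.6 and +40.8 kb. The background scores there were 1.04, 0.06 and 0.00. The whole region had 85 tags (67.9 to 105, 95% Poisson interval), and 5.43% of all regions had more.

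A further region lay 35.0 to 35.2 kb beyond the gene's end, from 91515767 to 91516361. Its maxima at +51.9 and +52.1 kb had ChIP scores of 31.58 and 52.19, both with a background score of 0.00. It had 45 tags (32.8 to 60.2), and 23.6% of all regions had more.

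On the upstream side the peaks were single and had few tags. The peak at -3.42 kb (91571233 to 91571732) had a ChIP score of 36.67 and its region 17 tags (9.90 to 27.2). The peak at -19.7 kb (91587542 to 91588041) had a ChIP score of 39.34 and 18 tags (10.7 to 28.4). Both had a background score of 0.00, and 89.8% and 86.4% of regions in the list had more tags. The tag intervals of the regions past the gene's end did not overlap those of the upstream regions. These intervals cover counting error only, and none covers the spread between libraries. Tags were counted over regions of unlike width: 1029 and 595 bp downstream, 274 and 236 bp upstream, against a median of 467 bp over the list. Per kb of region the order did not hold. The downstream regions of Sall1 had 82.6 (66.0 to 102) and 75.6 (55.2 to 101) tags per kb, and the upstream ones had 62.0 (36.1 to 99.3) at -3.42 kb and 76.3 (45.2 to 121) at -19.7 kb, with overlapping intervals.

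**Figure D1:**
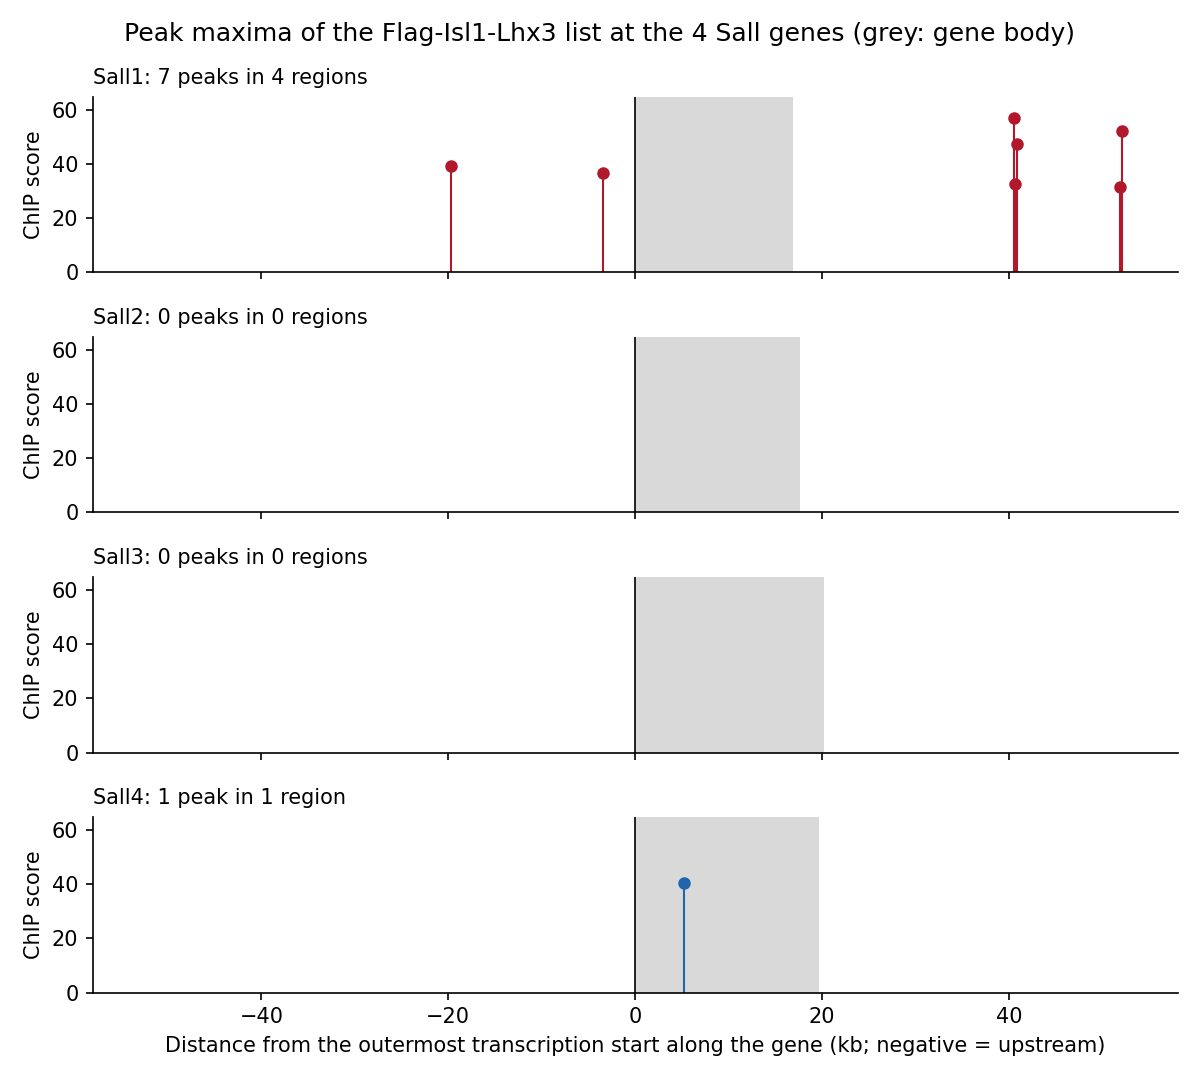
Peak maxima at the 4 Sall genes, with the distance from each gene's outermost transcription start in kb on the x axis and the ChIP score on the y axis. Grey marks the gene body; Sall1 has 5 maxima in 2 regions past its end and 2 upstream, Sall4 has 1 inside the gene at 5.16 kb, and Sall2 and Sall3 have none.

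The maxima within a region stood close together. At Sall1 they were 205 bp apart in the outer region and 157 and 152 bp apart in the inner one. Over the list, 153 such gaps had a median of 173 bp, with quartiles of 128 and 238 bp. Regions with 3 or more maxima numbered 14 (0.608%), and those with 2 or more numbered 135 (5.87%). Sall1 had 1 region with 3 maxima and 1 with 2, so its 7 peaks are not 7 separate regions.

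Sall4 (ENSMUSG00000027547.11) held a single peak, inside the gene. The gene lies on the reverse strand of chromosome 2 from 168573832 to 168593443. The peak (168588033 to 168588532) was intronic, 2.46 kb from the start of a shorter transcript and 5.16 kb from the outermost of 6 starts. It scored 40.68 in the ChIP and 1.10 in the background, and its region had 36 tags (25.2 to 49.8). The region was 785 bp wide, which gives 45.9 tags per kb (32.1 to 63.5). In the list 50.5% of peaks scored higher, which places it at the middle. The nearest other peak was 563 kb away, with a score of 29.98.

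Sall2 and Sall3 had no peak, and the nearest peak was far from each. Sall2 (ENSMUSG00000049532.6, chromosome 14, 52930847 to 52948437) lies between Mettl3, which encodes an RNA methyltransferase, and the olfactory receptor gene Olfr1513, neither of which had a peak. The nearest peak was 294 kb away and belonged to Zfp219, with a score of 44.16. Sall3 (ENSMUSG00000024565.8, chromosome 18, 81163115 to 81183317) had its nearest peak at 802 kb, assigned to Rbfa with a score of 35.33. Sall3 and Sall4 have related neighbours, Atp9b beside Sall3 and Atp9a beside Sall4, which encode lipid transporters of the flippase family. Neither had a peak, nor had Zfp64 on the other side of Sall4 or Galr1 on the other side of Sall3. A gene with no listed peak is one with no call above the authors' threshold, which is not given in the sources used here, and not one shown to be unbound.

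The stretch of sequence from which a gene can receive a peak differs between the 4 genes. The bases nearest to a start, here the gene's territory, came to 191 kb for Sall1, 28.7 kb for Sall2, 723 kb for Sall3 and 91.1 kb for Sall4. At the average density of the list, 0.924 peaks per Mb of the 21 chromosomes, these would hold 0.176, 0.0265, 0.668 and 0.0842 peaks. Sall1 had 36.7 peaks per Mb of territory, and Sall4 had 11.0. Among 1904 other genes with a territory 0.75 to 1.33 times that of Sall1, 16.3% had a peak, 6 had 4 or more regions and 1, Spry2, had 7 or more peaks. The share with a peak was 25.4% among 555 genes with a territory like that of Sall3, 9.98% among 3228 like Sall4 and 3.56% among 4239 like Sall2. The empty territory of Sall3 was thus shared with most genes of its size, and a single peak was found at 8.05% of genes with a territory like that of Sall4.

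Since the Sall genes were taken up with these counts known, 2 of 4 with a peak, beside 8.18% of all genes, is a description and was not tested. Genes with 7 or more peaks numbered 3, or 0.0134%: Spry2, which encodes an inhibitor of receptor tyrosine kinase signalling, with 11, Wwox with 8, and Sall1. Spry2 was named after its count was seen. Counted by region, 24 genes (0.107%) had the 4 regions of Sall1 or more. The next peak outward from those of Sall1 fell outside its territory. It lay 228 kb upstream of Sall1 with a score of 40.95 and was assigned to Gm5356, at -84.4 kb from that gene's start.

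**Figure D2:**
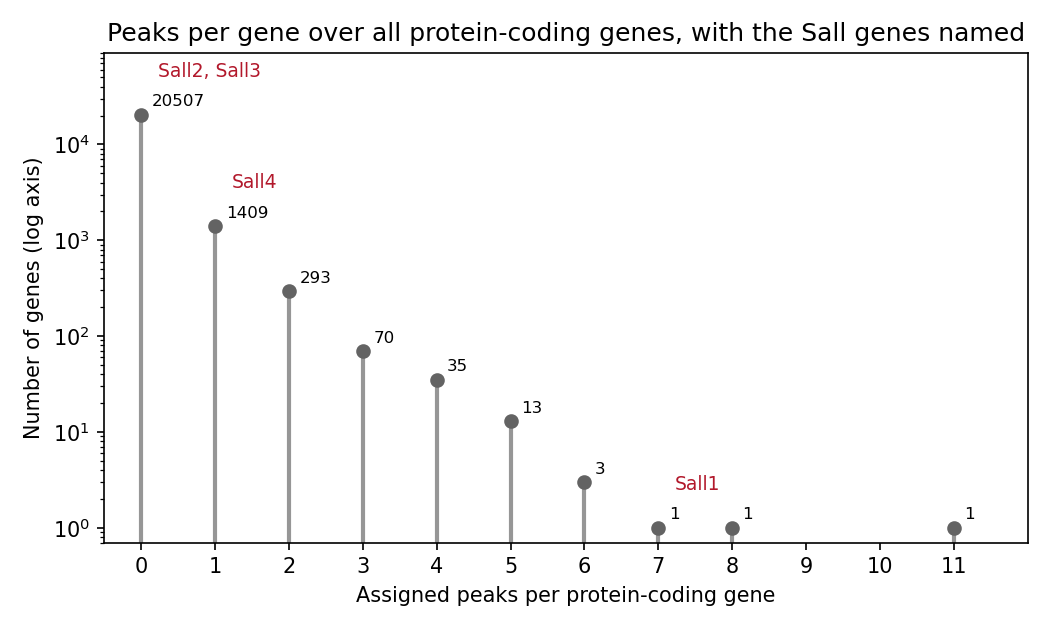
Number of protein-coding genes (y axis, log scale) with each number of assigned peaks (x axis), with the count of genes beside each point and the Sall genes named. Sall1 stands at 7 peaks, Sall4 is among 1409 genes with 1 peak, and Sall2 and Sall3 are among 20507 genes with 0.

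The genes nearest to Sall1 in number of peaks varied in how the peaks were spread, and Sgk1 was close to Sall1 in this. The measure of likeness was the absolute difference in number of assigned peaks, over 22333 genes, with ties placed by the higher strongest score. Sgk1, a serum- and glucocorticoid-induced kinase gene, had 6 peaks in 4 regions over 108 kb, with a strongest score of 137.30. Wwox, which encodes a WW-domain oxidoreductase, had 8 in 5 regions over 705 kb, with a strongest score of 79.22. Stim2, a calcium sensor gene, had 6 in 2 regions with a strongest score of 57.81, and Tle4, a Groucho-family corepressor gene, had 6 in 6 regions with 54.87. Akap2, which encodes a kinase anchoring protein, had 5 in 4 regions over 163 kb with 153.63. The peaks of Sall1 spanned 71.8 kb, the shortest span of these 6 genes, but their territories were unlike. These were 191 kb for Sall1, 246 kb for Sgk1 and 172 kb for Akap2. Wwox, Stim2 and Tle4 had 781 kb or more. From the nearest start, peaks lay 3.42 to 52.1 kb away at Sall1 and 9.18 to 52.8 kb at Sgk1. At Akap2 they lay 1.18 to 28.7 kb away, so the span does not place Sall1 peaks nearest to their start. Counted by peak, Sall1 had 36.7 per Mb of territory, Akap2 29.1 and Sgk1 24.4. Counted by region the order of the first pair turned round, with 21.0 per Mb for Sall1, 23.3 for Akap2 and 16.3 for Sgk1, so no order in density is read from these values.

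The Sall1 peaks were numerous but were not among the strongest of the list. The highest-scoring, at +40.5 kb of Sall1, ranked 517 by ChIP score, and 21.0% of peaks scored higher. Of the 7 Sall1 peaks 3 lay above the list's median score of 40.95, and their own median was 39.34. The list ran from 29.98 to 321.18. By tags the inner downstream region of Sall1 stood higher, at rank 181 among peaks. The ChIP score was at least 10 times the background score at 8 of 8 Sall peaks and at 94.6% of all peaks. The background score was 0 at 5 of the 8, some of which share a region, against 31.1% of the list. The libraries behind the background score are not stated, so this ratio is no comparison of cells with and without Dox.

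**Figure D3:**
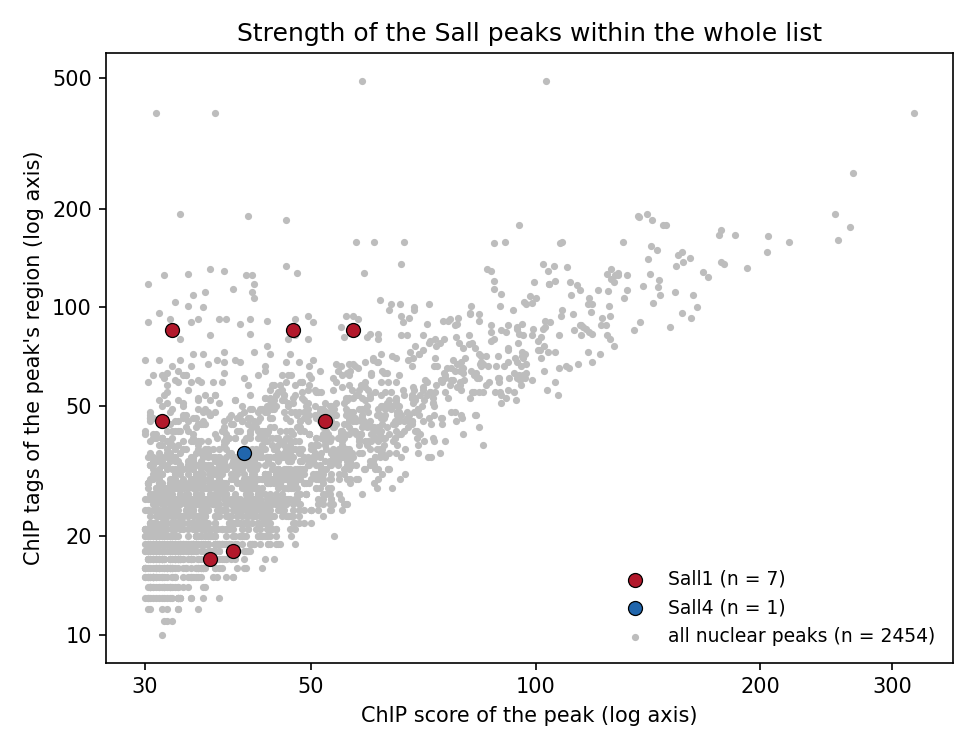
ChIP score of each peak (x axis, log scale) and tags of its region (y axis, log scale), for the Sall1 peaks, the Sall4 peak and all 2454 nuclear peaks. The Sall peaks lie between scores of 31.58 and 57.01, within a list that runs to 321.18, and the 3 maxima of 1 Sall1 region share 85 tags.

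Position and base composition of the Sall peaks could be set beside the list. All 7 Sall1 peaks lay in no annotated gene, as did 50.8% of the list, and no other annotated gene, coding or not, was nearer to any of the 8. Within 5 kb of a start lay 2 of the 8, against 22.0% of all peaks, and the other 6 lay 10 to 100 kb away, as did 48.5%. GC content of the 200 bp windows ran from 41.5% to 49.5%, with a median of 48.0% in the list. The peaks of Sall1 share a locus, so these counts describe 5 regions.

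Homeodomain cores were present at every Sall peak, but the longer site TAATTA was at none. A core ATTA or TAAT lay within the 200 bp window of 8 of 8 peaks, against 94.2% of all peaks and 66.8% of flanking windows 1 kb to each side. The palindrome TAATTA, read on both strands, was in 0 of 8, against 34.2% of all peaks and 6.48% of flanks. TAATTA was also absent from the deposited 500 bp windows at Sall genes, where 41.6% of all peaks had it. Since the windows share regions, the limit is set over regions: 0 of 5, with 3 counts, allows a share of up to 60.0%. Over the list 35.3% of regions had TAATTA in a 200 bp window and 41.7% in a 500 bp window, so a difference was not detectable at this number of regions. ATTA followed by TAAT with 3 bases between was in 0 of 8 Sall peaks and 4.97% of the list. A pair of TAAT cores with 5 bases between, on either strand, was in 0 of 8 and 6.03%. The limit of 60.0% over regions holds for both pairs too, so these absences are not read as a difference from the list.

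The peaks differed in how near a core lay to the maximum. At the strongest Sall1 peak, +40.5 kb, 6 cores fell in the window, of which the nearest was centred 5.5 bp from the maximum. Over the list 7.99% of peaks had 6 or more cores, where overlapping cores count separately. The +52.1 kb peak had a core centred 3.5 bp from its maximum, and the +51.9 kb peak 18.5 bp, in a list whose median was 15.5 bp. The other inner maxima of Sall1 had their nearest core at 40.5 and 48.5 bp, and the -3.42 kb peak at 44.5 bp. The -19.7 kb peak of Sall1 and the Sall4 peak each had a single core, at 87.5 and 69.5 bp. A core within 50 bp was thus found at 6 of 8 Sall peaks and 85.2% of all peaks. By region, the central 100 bp held a core in 3 of 5, against 86.3% of all regions, and a difference was not tested. The windows of the +40.6 and +40.5 kb maxima overlap and share cores.

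The series title names STAT3, so sites of the form TTCNNNGAA, a relaxed STAT site, were looked for. They were found at 2 of 8 Sall peaks (interval 3.19% to 65.1%), both of Sall1, against 4.97% of all peaks and 5.87% of flanks. By region they were in 2 of 5, against 5.26% of all regions. The interval treats maxima that share a region as separate peaks, so it is not read against the list, and none was computed over regions. A difference from the list was not tested, and no enrichment is read from these counts. The +52.1 kb window had TTCCCAGAA 72 to 64 bp before the maximum and TTCTGGGAA 91 to 99 bp after it. The -3.42 kb window had TTCTTGGAA 66 to 58 bp before the maximum, overlapping by 1 base with a TAAT core. No site lay in the central 100 bp of any Sall peak, and the strict form TTCCNGGAA was in 0 of 8. The E-box CAGCTG, which basic helix-loop-helix factors bind, was in 1 of 8, at 2 places in the +40.6 kb window, against 13.9% of the list. The POU octamer ATGCAAAT (4.24% of the list), the SOX site ATTGTT (14.3%) and AATATT (1.87%), an AT-rich sequence of the kind bound by the last zinc-finger cluster of Sall4, were in 0 of 8. For these and the strict STAT form the limit over regions is also 60.0%, so no difference from the list is read.

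**Figure D4:**
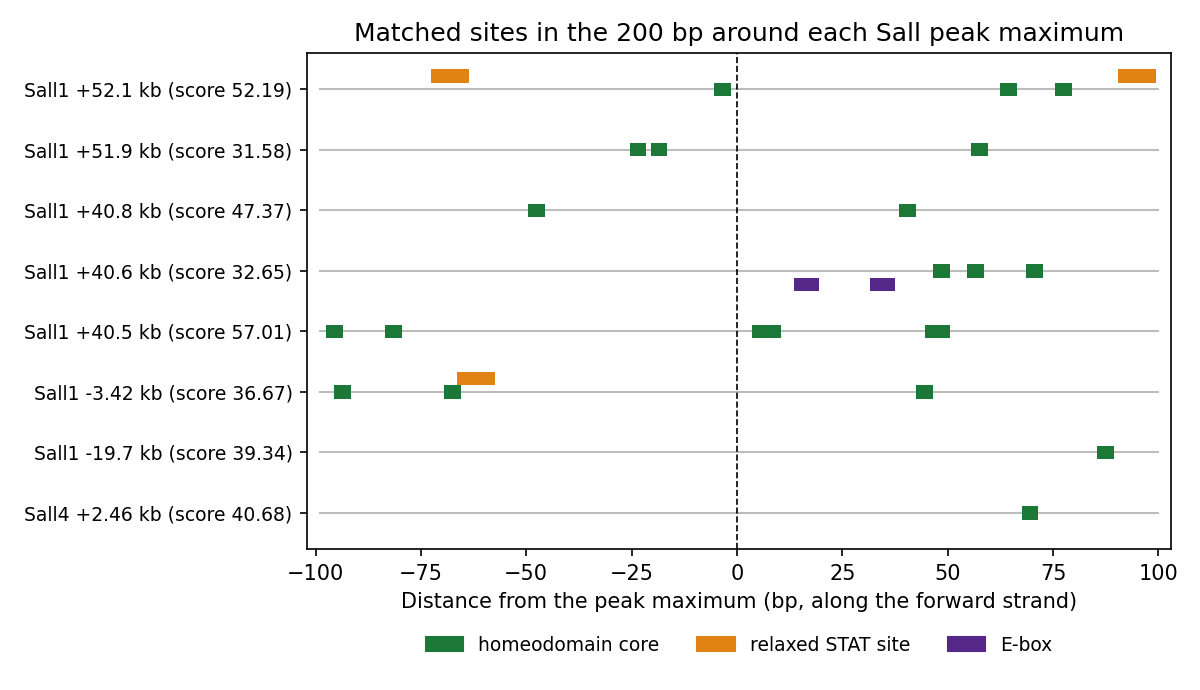
Sites in the 200 bp around each Sall peak maximum, 1 row per peak, with the distance from the maximum in bp on the x axis. Green marks homeodomain cores, orange relaxed STAT sites and purple E-boxes; cores lie within 10 bp of the maximum at the +52.1 and +40.5 kb peaks of Sall1, and farthest from it at the -19.7 kb peak of Sall1 and the Sall4 peak.

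Genes that act with Sall proteins were read from the same list. Among 13 genes of the NuRD complex 1 had a peak, or 7.69% (0.195 to 36.0), beside 8.18% of all genes. It was Rbbp7, a histone-binding subunit, with a score of 52.99 at -32.0 kb. Of 17 matched genes of the pluripotency network around Sall4, 9 had a peak (52.9%, 27.8 to 77.0), with a median of 1.00 peak per gene against 0.00 over all genes. The strongest were at Prdm14 (86.18), Sox2 (84.04, 5 peaks), Tbx3 (70.93) and Klf5 (63.43, 5 peaks), while Pou5f1 and Nanog, named after their counts were seen, had none. Prdm14, Sox2, Tbx3 and Klf5 had a peak 52.2, 17.9, 25.8 and 212 kb from their starts. Of 13 genes that act with Sall1 or Sall4 in kidney and limb, 3 had 1 peak each (23.1%, 5.04 to 53.8): Eya1 (43.09), Six2 (37.74) and Pax2 (30.78), at -111, -78.4 and -63.1 kb from their starts. No member of these lists had as many peaks as Sall1. The lists were drawn up with results of these data known and were not tested. Their intervals cover counting error only and do not measure a departure from the 8.18% of all genes. The lists were not matched for territory either.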

How the data were processed

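Reads were aligned with BWA 0.5.8a to mm9, per the submitters' processing notes. No peak caller, threshold or pooling of libraries is named in the sources used here. Per the file headers, the deposited list gives a ChIP score, a background score and a count of tags per region. The authors' scores have no stated scale. The peaks of 1 region carry the same deposited tag count. A single mitochondrial peak of 2455 was left out.

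Each maximum was assigned to the nearest of all transcript starts of 22333 protein-coding genes of GENCODE M1, whose NCBIM37 build is mm9. A start shared by several genes was given to 1 of them. Of 22367 protein-coding records, those left with no start of their own could receive no peak and were not counted. Coordinates are 1-based. Motifs were searched on both strands in 200 bp centred on the maximum and in flanks 1 kb away, with Python 3.11.15 and pysam 0.24.0. The assignment and motif search were tested on simulated data. Intervals are 95% exact binomial or exact Poisson intervals and cover counting error only. The limit for a count of 0 is instead 3 counts over the number of regions, which is approximate and wide at so few regions.

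The members, gene lists and rules were chosen with earlier results of these data known, so no test was made. Named genes are the 4 Sall genes, their next protein-coding neighbours, the 5 genes nearest to Sall1 in number of peaks, and up to 4 members per list. Spry2, Pou5f1, Nanog, the genes of the nearest other peaks (Zfp219, Rbfa) and Tfcp2l1 fall outside that rule and were named after their values were seen. Alternatives changed the genes, starts, peaks kept, distance, strength measure and motif window. One listed pluripotency gene, Tfcp2l1, matched no record.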

Additional observations from a re-analysis of the deposited data

How the results depend on the processing

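Under the alternatives 39 values stayed within 1.5 times the value reported and 12 did not. Some of the 39 could not have moved, so this count is no measure of robustness. A subset of peaks leaves Sall2 and Sall3 at 0, and a shorter window cannot add a motif that was absent. The limit of 100 kb could drop nothing, since the farthest Sall peak was at 52.1 kb. The total over the Sall genes also repeats the counts of its genes. The Sall genes had 5 peaks with 1 kept per region, 3 among the highest-scoring 50% of peaks, all of Sall1, and 1 among the highest-scoring 25%. All annotated genes, outermost starts and a limit of 100 kb each left 8. Counting every peak within 500 kb gave 11, as Sall1 gained 1 and Sall2 gained 2. Leaving out protein-coding records named Gm or -ps, chosen after the data were seen, gave Sall1 an eighth peak. With ChIP tags in place of the score, the highest rank of a Sall1 peak was 181 and not 517. Sall1 had 21.0 peaks per Mb of territory with 1 peak per region, against 36.7. Akap2 had 23.3 regions per Mb, a comparison added after the data were seen, and no order is read from it. In 500 bp windows, AATATT was at 1 Sall peak. No paired analysis was possible because the list gives no value per library. The depth of the libraries is unknown, and no spread between them could be measured.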

Other observations

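Arrangements of cores in the Sall1 sequences were counted over the list after they had been seen, and are given as values only. At the +51.9 kb maximum TAATGATTA, facing cores with 1 base between, lay 25 to 17 bp before the maximum. The form TAATNATTA was in 0.652% of all peaks and 0.693% of flanks. At the +40.5 kb maximum ATTATTA lay 4 to 10 bp after the maximum, a form in 2.16% of all peaks and 4.14% of flanks, and ATTAAT lay 45 to 50 bp after it, a form in 13.1% of peaks and 5.24% of flanks. In the +52.1 kb window of Sall1, the relaxed STAT sites TTCCCAGAA and TTCTGGGAA are reverse complements of each other. These 9 bases were at 16 of 2454 peaks (0.652%) and in 0.530% of flanks. A window with 2 or more relaxed STAT sites was found at 3 peaks in the list (0.122%), of which the +52.1 kb peak was 1.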
